A study of Homo sapiens with 6 samples.

Results

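Long intergenic noncoding RNA (lincRNA) genes and antisense RNA genes that were well covered in A549 cells were described gene by gene. A gene was taken when the deposited table gave it the biotype lincRNA or antisense and a count of at least 100 in each of the 6 libraries. This rule selected 149 of the 58735 genes listed, made up of 74 of 7629 lincRNA genes and 75 of 5583 antisense genes. The genes were thus selected on their counts, and their level is a description and carries no test.

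A549 is a human lung adenocarcinoma cell line. Total RNA was isolated, and 3 libraries came from A549 cells carrying a lentiviral IL17D construct (IL17D group). Another 3 libraries came from A549 cells carrying the empty vector (control group). All were cultured in RPMI1640 medium with serum. The RNA selection before sequencing is not given in the sources used here. The vector is named for the human PGK promoter and for an IRES-linked GFP, and both groups carried it. The sources used here do not say whether replicates were separate transductions or cultures, so p-values measure only the spread between these libraries, which may be technical. The comparison asks which of these noncoding RNAs differ in level when A549 cells are made to express IL17D, a cytokine of the interleukin 17 family.

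LincRNAs are transcribed by RNA polymerase II from stretches between protein-coding genes, and many are spliced and carry a poly(A) tail without encoding a protein. Antisense RNAs come from the strand opposite another gene, often from a promoter shared with it, and can act on that gene's transcription, splicing or RNA stability. Well-studied examples in epithelial cells scaffold nuclear bodies (NEAT1) or lie in them (MALAT1). Others bind proteins in the cytoplasm (NORAD), or serve mainly as precursors of small nucleolar RNAs (snoRNAs) or microRNAs (miRNAs).

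Counts on genes totalled 14319398 to 16521021 per library. IL17D had 24, 18 and 34 counts in the control libraries and 31274, 32155 and 26772 in the IL17D libraries, which checks the labels. Of the A549 and epithelial markers, KRT8 was the most abundant, with 106085 to 126416 counts, while KRT19 had 3 to 11 and EPCAM 9 to 21 counts. In the IL17D libraries AKR1B10 (log2 fold change -0.23), ALDH3A1 (-0.22), ALDH1A1 (-0.090) and CDH1 (-0.28) were lower and passed the test. KRT8, KRT18, NQO1 and EPCAM did not pass, and KRT19 was not tested. Of 10 markers of other cell types, the fibroblast gene COL1A1 had 274 to 394 counts and the myeloid gene CD14 had 8 to 20, both without passing the test, and 6 others had at most 9. The leukocyte markers PTPRC and CD3E were at 0 in every library, where 3 counts (0.182 to 0.210 CPM, counts scaled to a library total of 1e+06) are the limit that a count of 0 allows, for counting error only. In bulk RNA of this kind, fewer cells with a transcript and less of it per cell cannot be told apart.

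The 3 genes that passed the test between the groups are known only by the name of a genomic clone, so the first 100 bases of the longest GENCODE release 29 transcript of each are shown, 5′ to 3′, to say what was counted. AC102953.2 is a lincRNA gene of 1 exon on the minus strand (GRCh38 chr7:1464497-1467522). AC006058.1 is a lincRNA gene of 1 exon on the plus strand (chr3:44117299-44122365). AC022613.1 is an antisense gene of 3 exon blocks on the plus strand (chr15:29674990-29680957).
AC102953.2: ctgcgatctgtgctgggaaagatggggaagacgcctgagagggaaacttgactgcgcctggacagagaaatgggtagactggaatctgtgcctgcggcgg
AC006058.1: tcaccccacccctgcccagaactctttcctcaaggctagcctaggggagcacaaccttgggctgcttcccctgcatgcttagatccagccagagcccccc
AC022613.1: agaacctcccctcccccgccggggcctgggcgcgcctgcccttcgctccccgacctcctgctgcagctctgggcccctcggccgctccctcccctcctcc

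RefSeq-listed miRNA hairpins (GRCh38.p14) lay in 11 of the 149 genes, 20 hairpins in all. The mature miRNAs of the hosts described below are shown because they are what such transcripts are best known for; the small RNAs themselves were not measured. Capitals mark the seed, bases 2 to 8. AC020916.1 held miR-23a, miR-27a and miR-24-2 in its exon, MIRLET7BHG held let-7a-3 and let-7b in an exon, and MIR22HG and MIR34AHG held miR-22 and miR-34a in an exon. CYTOR and MIR4435-2HG, related copies on chromosome 2, each held a copy of miR-4435.
hsa-miR-23a-3p: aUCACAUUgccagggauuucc
hsa-miR-27a-3p: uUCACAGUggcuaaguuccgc
hsa-miR-24-3p: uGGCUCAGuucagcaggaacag
hsa-let-7a-5p: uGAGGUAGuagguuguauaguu
hsa-let-7b-5p: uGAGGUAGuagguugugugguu
hsa-miR-22-3p: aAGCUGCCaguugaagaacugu
hsa-miR-34a-5p: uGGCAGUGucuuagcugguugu
hsa-miR-4435: aUGGCCAGagcucacacagagg
The seeds of let-7a-5p and let-7b-5p were the same, GAGGUAG. No other pair among these 8 sequences shared a seed.

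How abundant these RNAs were was compared per length, as CPM divided by the gene's exon length in kilobases (RPKM). The median over the 74 lincRNA genes was 4.64 RPKM and over the 75 antisense genes 4.61, against 8.06 over the 10286 tested genes at or above 100 counts throughout. Levels ran from 0.118 RPKM for KCNQ1OT1, an antisense RNA of the imprinted KCNQ1 locus whose annotated exon is 91667 bases long, to 72.1 RPKM for NORAD, a cytoplasmic RNA with a role in genome stability. After NORAD, the most abundant lincRNAs per length were the snoRNA host SNHG19 (57.7 RPKM), MALAT1 of nuclear speckles (46.7 RPKM), the snoRNA host SNHG8 (35.5 RPKM) and SIRLNT (21.9 RPKM). The most abundant antisense RNAs were AC099850.3 (43.9 RPKM), FGD5-AS1 (35.0 RPKM), RNASEH1-AS1 (24.1 RPKM), AL365181.3 (20.9 RPKM) and AC005288.1 (20.3 RPKM). The most abundant genes were lincRNAs, but below them the levels of the biotypes ran alike. SNHG19 and AC099850.3 have exons of only 342 and 321 bases. For NORAD, 56.4% of the 31-base stretches also occur in other genes, so its value depends on how shared reads were counted.

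**Figure D1:**
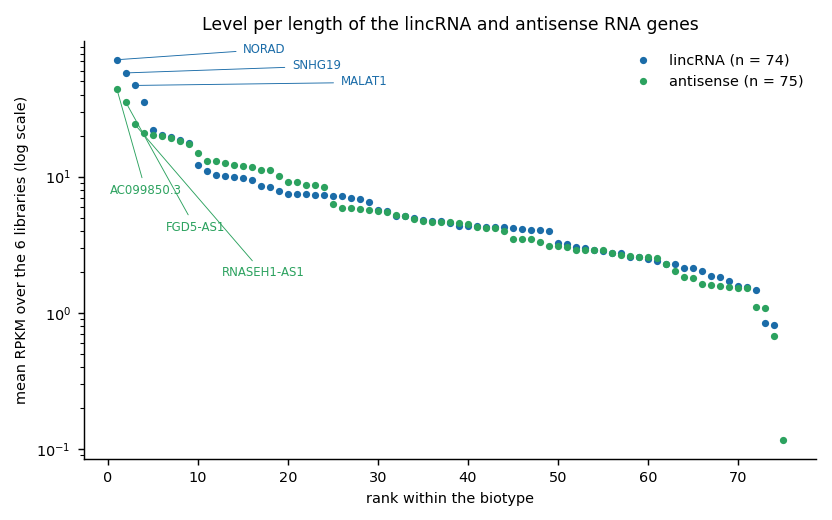
Mean RPKM over the 6 libraries (log scale) of each gene against its rank within its biotype, with 74 lincRNA genes in blue and 75 antisense genes in green. The curves lie close together, with medians of 4.64 and 4.61 RPKM, and NORAD at 72.1 RPKM is the highest.

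The biotypes differed in how their genes sit in the genome. Of the 75 antisense genes, 67 overlapped a protein-coding gene on the opposite strand, against 16 of the 74 lincRNA genes. The median share of a gene's exon bases that also lay in exons of other genes was 9.02% for antisense genes and 0% for lincRNA genes. Gene lengths were alike, with medians of 3477.5 exonic bases for lincRNA and 3593 for antisense genes. Whether the counting used the strand is not given in the sources used here, so reads from an antisense RNA and from the gene across from it cannot be told apart where their exons overlap. Reads of genes with near-identical copies are uncertain too: for 7 of the 149 genes, most 31-base stretches were found in other genes, among them ABALON (72.9%), NUTM2A-AS1 (66.1%) and LINC01106 (92.6%).

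Between the groups, 3 of the 149 genes (2.01%) passed edgeR's quasi-likelihood test at an adjusted p under 0.05, 1 higher and 2 lower in the IL17D libraries. Among all 15754 tested genes 1.58% passed, 0.673% higher and 0.908% lower, and among the 10286 genes at or above 100 counts throughout 2.2% passed, so the share was near the background. By biotype, 2 of 74 lincRNA genes (2.70%) and 1 of 75 antisense genes (1.33%) passed. The difference between the biotypes was not tested.

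AC102953.2, a lincRNA known only by its clone name, was counted 214, 213 and 230 times in the control and 316, 323 and 305 times in the IL17D libraries. All 3 IL17D libraries lay above all 3 control libraries, at 20.0 ± 1.14 CPM against 14.0 ± 0.803 (SD, n = 3). It rose by a log2 fold change of 0.51 (SE 0.099, adjusted p = 0.00195, edgeR), and it passed the test under every one of the 12 alternatives tried. Per length its level was 5.63 RPKM, ranking 61 of the 149 genes.

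AC006058.1, also a lincRNA with only a clone name, had 246, 187 and 248 counts in the control and 168, 177 and 133 in the IL17D libraries. The groups did not overlap, at 14.5 ± 1.36 CPM in the control and 10.1 ± 0.727 in the IL17D group (SD, n = 3). It fell by 0.52 on the log2 scale (SE 0.116, adjusted p = 0.00922, edgeR). The call was lost without control replicate 1 (adjusted p = 0.0613) and without IL17D replicate 3 (adjusted p = 0.0841).

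AC022613.1 was the only antisense gene to pass, and no coding gene overlaps it on the opposite strand in GENCODE. Its counts were 924, 902 and 977 in the control and 905, 806 and 637 in the IL17D libraries. Scaled for depth the groups did not overlap, at 59.9 ± 2.82 CPM in the control and 49.5 ± 5.20 in the IL17D group (SD, n = 3), with IL17D replicate 3 the lowest at 44.6 CPM. It fell by 0.27 on the log2 scale (SE 0.065, adjusted p = 0.0186, edgeR). The call did not hold without control replicate 2 (adjusted p = 0.109), IL17D replicate 2 (0.0664) or IL17D replicate 3 (0.245).

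**Figure D2:**
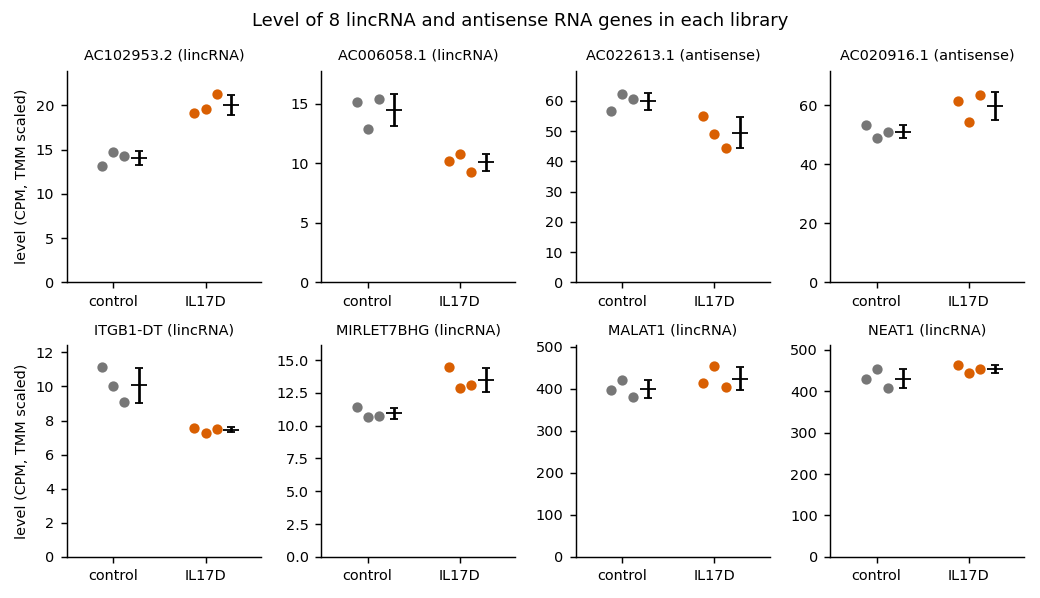
Level in CPM (linear axes from 0) of 8 genes in each of the 3 control (grey) and 3 IL17D (orange) libraries, with the mean and SD of each group as a black mark. The groups do not overlap for the 3 genes that passed the test, nor for AC020916.1, ITGB1-DT and MIRLET7BHG, while those of MALAT1 and NEAT1 do.

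The median absolute log2 fold change of the 149 genes was 0.095, and their median standard error was 0.105. For genes at or above 100 counts throughout the median absolute change was 0.059, but these genes were also better covered, with a median of 647.9 counts against 260.5. At an unadjusted p under 0.05 there were 19 of 149 genes (12.8%), against 11.6% of all tested genes and 13.7% of genes at or above 100 counts throughout. They were 13 lincRNA genes, 7 higher and 6 lower, and 6 antisense genes, 4 higher and 2 lower.

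The groups did not overlap for 32 of the 149 genes (21.5%), 16 higher and 16 lower in the IL17D libraries. The same held for 15.8% of all tested genes and for 18% of genes at or above 100 counts throughout. By biotype it held for 18 lincRNA genes, 8 higher and 10 lower, and for 14 antisense genes, 8 higher and 6 lower.

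More genes lay below 0 than above it in both biotypes, 43 against 31 for lincRNA and 43 against 32 for antisense genes. The median log2 fold change was -0.044 for lincRNA and -0.0096 for antisense genes, against -0.00044 for all tested genes.

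**Figure D3:**
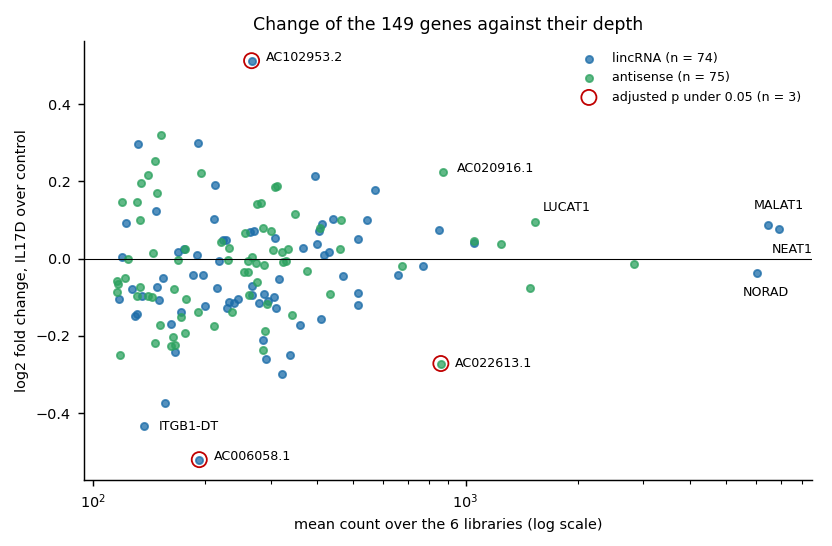
Log2 fold change of IL17D over control against the mean count over the 6 libraries (log scale), with lincRNA genes in blue, antisense genes in green and the 3 genes at an adjusted p under 0.05 circled. The changes run from -0.52 for AC006058.1 to 0.51 for AC102953.2 and narrow toward the well-counted MALAT1, NEAT1 and NORAD.

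The nuclear body RNAs were the best counted. MALAT1, which lies in nuclear speckles, had 6465, 6111 and 6134 counts in the control and 6838, 7499 and 5770 in the IL17D libraries. NEAT1, the scaffold of paraspeckles, had 6988, 6577 and 6569 counts in the control and 7620, 7315 and 6494 in the IL17D libraries. After scaling the groups overlapped for both. The log2 fold change of MALAT1 was 0.088 (95% interval 0.008 to 0.167, adjusted p = 0.371, edgeR) and that of NEAT1 0.076 (0.005 to 0.148, adjusted p = 0.384), so neither passed the test. Leaving out 1 library moved MALAT1 to between 0.035 (without IL17D replicate 2) and 0.13 (without control replicate 2), and NEAT1 to between 0.040 (without control replicate 3) and 0.12 (without control replicate 2). None of 8 speckle and MALAT1-processing proteins passed, with a median of 0.041.

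NORAD had 6140, 5623 and 6512 counts in the control and 6292, 6196 and 5467 in the IL17D libraries. The groups overlapped, with a log2 fold change of -0.036 (95% interval -0.104 to 0.032). It was -0.0086 without control replicate 3 and -0.058 without control replicate 1.

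The snoRNA host RNAs release snoRNAs from their introns and leave a spliced RNA that is counted here. Of 24 tested genes of any biotype on a list of such hosts, 10 were among the 149 genes, and none of these 10 passed. The 10 include CYTOR, a miR-4435 host described below. SNHG15 had 563, 471 and 571 counts in the control and 679, 585 and 564 in the IL17D libraries. Its groups did not overlap after scaling, but its adjusted p was 0.294 (log2 fold change 0.18, edgeR). SNHG8 (-0.089), SNHG19 (0.054), ZFAS1 (-0.019), EPB41L4A-AS1 (0.10) and SNHG10 (-0.049) had adjusted p-values of 0.706 to 0.958. Among hosts of other biotypes, 1 passed and was higher, SNHG14, a long transcript of the imprinted Prader-Willi region (log2 fold change 0.20, adjusted p = 0.0186, edgeR). The list's median was 0.054, with 17 of 24 genes above 0.

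None of 16 tested RNAs on a list of miRNA hosts passed, with a median of 0.074 and 11 of 16 above 0. The list held 5 of the 149 genes and left out other hosts such as AC020916.1 and CYTOR. MIRLET7BHG, which carries let-7a-3 and let-7b, had 186, 155 and 173 counts in the control and 239, 212 and 187 in the IL17D libraries. Its groups did not overlap after scaling, at 11.0 ± 0.409 and 13.5 ± 0.888 CPM (SD, n = 3), but it did not pass (log2 fold change 0.30, SE 0.113, adjusted p = 0.245, edgeR). MIR22HG (0.048) and MIR4435-2HG (-0.045) had adjusted p-values of 0.927 and 0.895. CYTOR, the copy of MIR4435-2HG, had 0.052, and since 29.7% of its 31-base stretches occur in other genes, reads of the copies may be split. MIR34AHG, a p53 target that carries miR-34a, had -0.11 (adjusted p = 0.757).

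AC020916.1, the antisense transcript over the miR-23a, miR-27a and miR-24-2 hairpins, came closest to the threshold of the genes that did not pass. It lies on the minus strand (chr19:13823880-13842928) and shares 2286 exon bases with ZSWIM4 on the opposite strand. Its counts were 869, 712 and 819 in the control and 1014, 897 and 906 in the IL17D libraries. The groups did not overlap after scaling, at 51.1 ± 2.14 CPM in the control and 59.8 ± 4.71 in the IL17D group (SD, n = 3). The log2 fold change was 0.22 (SE 0.062, adjusted p = 0.0586, edgeR). It passed without IL17D replicate 2 (adjusted p = 0.0123, edgeR), with every gene of at least 1 count (0.0367) and with a replicate block (0.0297). The other alternative fits did not call it, such as those without IL17D replicate 3 (adjusted p = 0.331, edgeR), IL17D replicate 1 (0.254) or control replicate 2 (0.239). ZSWIM4 itself had a value of -0.052 on the log2 scale (adjusted p = 0.945).

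Among other lincRNA genes with large values, ITGB1-DT, a transcript divergent from the integrin beta 1 gene, had 181, 145 and 146 counts in the control and 125, 120 and 107 in the IL17D libraries. All IL17D libraries lay below all control libraries, at 7.45 ± 0.153 CPM against 10.1 ± 1.03 (SD, n = 3). The log2 fold change was -0.43 (SE 0.133), and the adjusted p of 0.104 (edgeR) missed the threshold. AL033397.1 had -0.37 (adjusted p = 0.158) and LINC00997 0.30 (adjusted p = 0.373), and the groups did not overlap for either. Over all 149 genes 86 lay below 0 and 63 above, with a median of -0.019. Of the 11 genes annotated as divergent or head-to-head transcripts, 9 lay below 0 and 2 above, with a median of -0.10, and none passed. By coordinates the set differs, with 6 antisense and 9 lincRNA genes head to head with a tested coding gene. Of the 18 genes with a LINC name, 13 lay below 0 and 5 above, with a median of -0.10, and none passed.

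Of the other antisense genes, SLFNL1-AS1 had 139, 124 and 142 counts in the control and 189, 167 and 154 in the IL17D libraries. Its groups did not overlap after scaling (log2 fold change 0.32, SE 0.124, adjusted p = 0.264, edgeR). NUTM2A-AS1 (0.19, adjusted p = 0.423) was higher and DLGAP1-AS1 (-0.24, adjusted p = 0.294) lower in all IL17D libraries, without passing. FGD5-AS1, the antisense RNA with the most counts, had 2951, 2607 and 2922 in the control and 2950, 3027 and 2486 in the IL17D libraries. Its groups overlapped, and its log2 fold change was -0.015 (95% interval -0.094 to 0.063). The values of RNASEH1-AS1 (0.025), AL365181.3 (0.046), AC099850.3 (0.044), AC005288.1 (-0.013) and KCNQ1OT1 (-0.0037) were below their standard errors.

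LUCAT1, an antisense RNA known to follow stress and NRF2 signaling in lung cells, had 1560, 1346 and 1540 counts in the control and 1650, 1673 and 1460 in the IL17D libraries. All IL17D libraries were above all control libraries after scaling, at 101 ± 1.04 CPM against 94.7 ± 1.63 (SD, n = 3). The log2 fold change of 0.095 (95% interval 0.003 to 0.188) did not pass (adjusted p = 0.411, edgeR). FTX, an X-linked lincRNA, had a value of 0.026 on the log2 scale (adjusted p = 0.952), and of 2 X-linked regulators tested none passed. Of 7 tested rows of p53-responsive RNAs none passed, with a median of -0.018, among them PURPL (-0.018) and PVT1 (0.10).

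AP-1 is a dimer of FOS and JUN proteins that binds the letters TGACTCA, and an AP-1 match is shown for the LUCAT1 and KRT7-AS promoters. The windows run from 250 bases before to 50 bases after the RefSeq start (GRCh38.p14), and 75 of the 149 genes matched RefSeq by symbol, with 82 windows. Read on both strands, the letters were in 5 of the 82 windows (6.10%), those of CYTOR, MIR4435-2HG, LUCAT1, KRT7-AS and DLGAP1-AS2, against 4.95% of 35116 windows of the same length. The E-box letters CACGTG were in 5 windows (6.10%) as well, against 7.26%. LUCAT1 (chr5:91314353-91314652, minus strand) and KRT7-AS (chr12:52247399-52247698, minus strand) are printed in the direction of transcription with the match in capitals.
LUCAT1: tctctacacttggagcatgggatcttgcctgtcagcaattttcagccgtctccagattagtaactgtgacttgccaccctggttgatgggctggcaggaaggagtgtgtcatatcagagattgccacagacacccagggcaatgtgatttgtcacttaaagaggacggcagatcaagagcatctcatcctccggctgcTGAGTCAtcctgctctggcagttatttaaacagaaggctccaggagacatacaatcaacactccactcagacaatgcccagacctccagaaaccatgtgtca
KRT7-AS: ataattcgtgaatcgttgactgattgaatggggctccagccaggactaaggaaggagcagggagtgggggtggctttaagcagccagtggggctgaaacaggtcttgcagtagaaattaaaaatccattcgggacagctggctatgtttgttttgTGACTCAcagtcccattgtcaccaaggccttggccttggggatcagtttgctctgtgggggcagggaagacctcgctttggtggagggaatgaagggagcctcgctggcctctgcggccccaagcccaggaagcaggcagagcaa
In LUCAT1 the letters read as their reverse complement. A match is a description of the sequence and not of binding.

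Antisense RNAs were next set beside the gene across from them. For 68 of the 75 antisense genes a tested protein-coding gene overlapped on the opposite strand or started head to head within 1000 bases, and where several overlapped the one that shared the most bases of the span was taken. In 32 of these 68 pairs both genes had the same sign, and across pairs the log2 fold changes had a Pearson r of 0.090 and a Spearman rho of 0.076. The points share the 6 libraries, and 54 of the pairs share exon bases, so r is given as a description only. The median was -0.011 for the antisense genes and 0.0029 for the genes across from them. Of the coding genes so paired 1 passed the test, PMEPA1, an inhibitor of TGF-beta signaling that lies across from NKILA, an RNA named for its interaction with NF-kappa B. ELF3 and MAP3K14 overlap ELF3-AS1 and MAP3K14-AS1 on the opposite strand and passed too, but other genes share more of those spans. For 24 lincRNA genes with such a coding gene, r was -0.45 and rho -0.26, and 11 of 24 pairs had the same sign. The largest partner change here was that of PRR34 across from MIRLET7BHG (-0.75, SE 0.550), with a mean of only 9 counts. That pair weighs heavily on r, so these values too are a description only.

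Tested genes within 10000 bases on either strand were then listed, a distance chosen after values had been seen. Of 260 such pairs, the neighbour passed the test in 11, and in all 11 the noncoding gene had the same sign as the neighbour, 6 higher and 5 lower. Of all tested genes 1.58% passed, and of those at or above 100 counts throughout 2.2% did. In the 249 pairs whose neighbour did not pass, 130 (52.2%) had the same sign. Where such a neighbour had an unadjusted p under 0.05 (edgeR), 18 of 33 pairs (54.5%) had the same sign. Of the 11 pairs, 7 shared no exon bases. The signs come from the same 6 libraries and were not tested, and when a library was left out 10 or 11 of these 11 pairs had the same sign. The neighbour passed in only 7 pairs without IL17D replicate 1 and in 6 without IL17D replicate 3, all of the same sign, and without IL17D replicate 2 it passed in 10, of which 9 had the same sign.

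Around the called lincRNA AC102953.2, the gene within 10000 bases that passed was MICALL2, a coding gene on the same strand at a distance of 4995 bases. MICALL2 had 761, 606 and 680 counts in the control and 922, 879 and 715 in the IL17D libraries. Both genes were higher in all IL17D libraries after scaling, MICALL2 with a log2 fold change of 0.29 (adjusted p = 0.0103, edgeR).

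On the higher side, NKILA (0.22, adjusted p = 0.587) lay by PMEPA1 (0.18, adjusted p = 0.0017). MAP3K14-AS1 (0.22, adjusted p = 0.466) lay by MAP3K14, which encodes the NF-kappa B-inducing kinase (0.23, adjusted p = 0.00156). SLFNL1-AS1 (0.32) lay by CTPS1, a CTP synthase (0.18, adjusted p = 0.00316), and NEAT1 (0.076) by FRMD8 (0.21, adjusted p = 0.0207). NKILA and PMEPA1 share 343 exon bases and MAP3K14-AS1 and MAP3K14 share 713, so part of their reads may be counted on either gene. KRT7-AS (0.10, adjusted p = 0.705) lay by the keratin pseudogene KRT87P (1.01, adjusted p = 0.0221), whose control libraries had 459, 119 and 1077 counts and whose IL17D libraries had 1019, 1132 and 1155. The third control library thus stood among the IL17D libraries for KRT87P.

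On the lower side, ITGB1-DT (-0.43) lay across from ITGB1 (-0.11, adjusted p = 0.0181), with 42 exon bases in common. ELF3-AS1 (-0.097, adjusted p = 0.875) lay across from ELF3, an epithelial transcription factor (-0.28, adjusted p = 9.12e-05), with 664 exon bases in common. LINC00842 (-0.25, adjusted p = 0.179) lay by the neuropeptide Y receptor gene NPY4R (-0.33, adjusted p = 0.0461). OLMALINC (-0.13, adjusted p = 0.695) lay by SCD, the stearoyl-CoA desaturase (-0.19, adjusted p = 0.000174), and AC009275.1 (-0.074, adjusted p = 0.905) by AKR1B1, an aldo-keto reductase (-0.14, adjusted p = 0.00879). Of the 11 noncoding genes, AC102953.2 is the only one that passed the test itself.

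**Figure D4:**
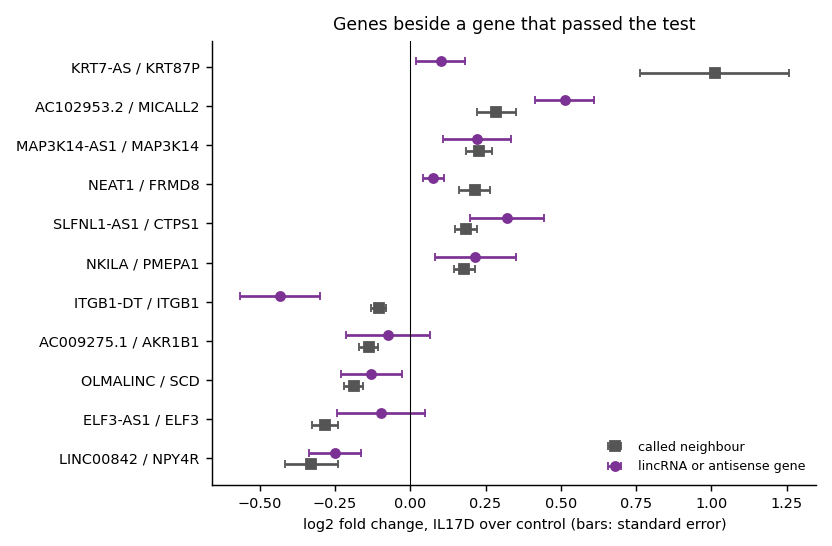
Log2 fold change of IL17D over control, with its standard error as a bar, for 11 noncoding genes (purple circles) and the gene within 10000 bases that passed the test (grey squares). Each pair lies on the same side of 0, 6 higher and 5 lower, but the bars of AC009275.1 and ELF3-AS1 cross 0. The wider 95% intervals of KRT7-AS, OLMALINC, NKILA and MAP3K14-AS1 include 0 as well, so the signs of these genes are not settled. Those of AC102953.2, NEAT1, SLFNL1-AS1, ITGB1-DT and LINC00842 do not include 0.

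The summed level of each biotype was close between the groups. The 74 lincRNA genes summed to 2591 ± 27.3 CPM in the control and 2608 ± 15.8 in the IL17D libraries (SD, n = 3), and the groups overlapped. The 75 antisense genes summed to 1652 ± 27.7 and 1649 ± 6.34 CPM, also overlapping. MALAT1 and NEAT1 held 18.8% to 21.1% of all counts on the 149 genes, and without them the lincRNA sum was 1761 ± 16.8 CPM in the control and 1730 ± 11.7 in the IL17D group. That sum did not overlap between the groups, with a log2 ratio of -0.026. The gap was narrow, from 1743 CPM in IL17D replicate 3 to 1745 in control replicate 2. Per length the groups overlapped, with 569 RPKM in IL17D replicate 3 above 557 in control replicate 1. The 149 genes held 55.6% to 56.4% of all counts on the 2 biotypes in each library.

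Near the count minimum, the genes just inside it were SNHG10 and LINC00997, with a lowest count of 100, and AL157937.1 with 101. Just outside were the antisense genes AL118516.1 and AC087741.1, with a lowest count of 99, and the lincRNA EIF3J-DT with 98. In all, 38 genes of the 2 biotypes had a mean of at least 100 counts but fewer in some library. Among genes under the minimum, 2 passed the test. The lincRNA AP000439.2 had 110, 81 and 101 counts in the control and 62, 67 and 60 in the IL17D libraries, all lower, and fell by 0.63 on the log2 scale (adjusted p = 0.0495, edgeR). The antisense gene AP001107.4 had 9, 3 and 4 counts in the control and 23 in each IL17D library, and rose by 2.08 (adjusted p = 0.00842, edgeR).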

How the data were processed

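RNA-seq counts per gene were analysed from 3 control and 3 IL17D A549 libraries, grouped by the sample labels. The authors deposited whole-number counts without normalization; the submitters' processing notes name Bowtie2 and hg38, and the counting tool, its use of strand and the RNA selection are not given in the sources used here. The table's genes have the coordinates of GENCODE release 29 (GRCh38). Libraries were scaled by TMM, genes were kept by filterByExpr, and 15754 genes were compared with edgeR 4.0.16 (glmQLFit and glmQLFTest, two-sided, R 4.3.3) with Benjamini-Hochberg adjustment over all of them. Errors are SDs of 3 libraries, and intervals are 95%. RPKM used the table's gene lengths. The steps were tested on simulated data. The genes described and all lists were chosen with earlier results of these data known. Named are the 5 most abundant genes per biotype, all that passed, the 3 largest rises and falls per biotype at an unadjusted p under 0.05, well-known RNAs and those at the count minimum. Neighbours within 10000 bases and the printed sequences were chosen after values were seen. Alternatives were DESeq2 size factors, DESeq2 1.42.0, limma 3.58.1 voom, other count filters, other count minimums for the genes, a replicate block, and leaving out each library. Results on some genes outside the 149 are not reported here.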

Additional observations from a re-analysis of the deposited data

How the results depend on the processing

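AC102953.2 passed under all 12 alternative fits, with adjusted p-values of 0.000380 to 0.0253. Leaving out 1 library gave 1 to 3 passing genes where 3 had passed: without IL17D replicate 3 only AC102953.2 did. Of these, 1 to 2 were lincRNA and 0 to 1 antisense genes. Across all genes, 249 passed and 145 to 267 did so without 1 library. The lincRNA count was 1 among the 43 lincRNA genes at or above 200 counts throughout, and 1 among the 29 lincRNA genes that overlap no other gene. The antisense count was 2 when all genes with at least 1 count were tested, and AC020916.1 was the gene added. Same-numbered libraries did not deviate together, with correlations of -0.015 to 0.010 against -0.041 to 0.054 for libraries of unlike number. These deviations hold counting error, so the correlations cannot say whether the numbers pair the samples. With a replicate block AC020916.1 passed (adjusted p = 0.0297, edgeR), the antisense count was 2 and that of all genes 272.

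The median of the antisense genes was -0.037 to 0.0037 without 1 library, and -0.13 over the 8 that overlap no other gene. The lincRNA sum had a log2 ratio of 0.010, and -0.026 without MALAT1 and NEAT1, an alternative chosen after seeing the data, as were the scaling by total counts and the leaving out of libraries for the sums. Among named genes, 21 of 384 recomputed values changed sign, all for genes that did not pass; the cause was not tested. Without 1 library the log2 fold change was -0.067 to 0.13 for SNHG19, -0.036 to 0.22 for AL157937.1, -0.013 to 0.15 for MIR22HG, -0.082 to 0.027 for MIR4435-2HG, -0.0030 to 0.13 for CYTOR, -0.059 to 0.097 for FTX, -0.0098 to 0.086 for AC099850.3, -0.035 to 0.0056 for FGD5-AS1, -0.083 to 0.057 for AC005288.1, -0.073 to 0.065 for ZFAS1, -0.26 to 0.11 for SNHG10 and -0.16 to 0.12 for KCNQ1OT1. KCNQ1OT1 also had 0.000543 with DESeq2's Wald test, 0.0099 with limma voom and 0.012 with a replicate block. At the depths seen here the standard error of a log2 fold change was 0.034 to 0.16 for these genes, which limits how small a difference could be detected.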
